A study of Sus scrofa with 17 samples.

Results

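Ulvan lyase was the ingredient that set the ULU diet apart from the UL diet, and its addition is described here in the longissimus dorsi muscle by comparing the 5 ULU libraries with the 6 UL libraries. These 11 of the 17 libraries of the study were taken by their diet labels, for a comparison picked with earlier results of these data known, and every one of the 14203 of 31908 annotated genes that passed a filter on low counts was tested. The animals were male Large White × Duroc piglets, 28 days old at the start, with 5 days of adaptation and 2 weeks on their diet. They were housed singly in metabolic cages and pair-fed, with 10 piglets per diet, of which 6 per diet were picked at random for RNA and 5 of the ULU group are analysed here. The UL and ULU diets both held 7% Ulva lactuca, a green seaweed, and the ULU diet also held 0.01% recombinant ulvan lyase. A control diet without seaweed or enzyme was fed to 6 further piglets, whose libraries entered the same statistical model and are given for reference. Each library came from the muscle of 1 piglet. The labels and the methods give no time of day, order of slaughter or sequencing batch for a library, so the enzyme and any such factor that differed between the diets cannot be told apart.

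Ulvan is a sulphated polysaccharide of the Ulva cell wall that pigs cannot digest, and ulvan lyase cuts its chains, which is meant to release the nutrients the wall encloses. The longissimus is a large back muscle made mostly of fast fibres that burn glycogen, with fewer oxidative fibres that rely on mitochondria. Many of its metabolic genes follow the circadian clock, a loop in which BMAL1 and CLOCK switch on the PER and CRY genes, whose proteins then hold BMAL1 and CLOCK back. In a second loop, the REV-ERB receptors (NR1D1, NR1D2) repress BMAL1 and the ROR receptors activate it.

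The values are reads counted per gene, here scaled with TMM factors to a library of 1000000 reads (CPM). The 11 libraries held 16137365 to 26546810 counted reads, and 3 reads, taken as the limit of detection, corresponded to 0.130 to 0.195 CPM (a limit that covers counting error only). Of 7 measures of the libraries, namely depth, genes detected, the shares of mitochondrial reads, of the 10 most abundant genes and of adipocyte and erythroid markers, and the distance to the centre of the diet, none separated UL from ULU. Their smallest adjusted p was 0.707 (two-sided exact permutation tests over 462 splits, where p can go no lower than 0.00433). Depth had a mean of 2.21e+07 counted reads in ULU and 1.87e+07 in UL (exact permutation test, p = 0.113 before adjustment). Skeletal muscle markers were abundant in every library, at a summed 92578 to 130652 CPM in UL and 105900 to 206725 CPM in ULU over the 6 of 9 markers that could be matched, as the labelled tissue requires. In whole muscle, fewer cells of a type and less RNA per cell cannot be told apart.

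With edgeR's quasi-likelihood test and Benjamini-Hochberg adjustment, 5 genes (0.0352% of those tested) had an adjusted p under 0.05, 1 higher (0.00704%) and 4 lower (0.0282%) in ULU. As in the methods of the study, a differentially expressed gene (DEG) also had to differ by 1 or more on the log2 scale, and 2 genes (0.0141%) did, both lower. The log2 of the fold change of ULU over UL is written log2 FC and is positive where ULU was higher. Without adjustment, 1540 genes (10.8%) had a p under 0.05, of which 875 (6.16%) were higher and 665 (4.68%) lower. The ranges of UL and ULU did not overlap for 155 genes (1.09%) that were higher in every ULU library and for 94 (0.662%) that were lower, 249 in all (1.75%). The median log2 FC of all genes was -0.02.

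**Figure D1:**
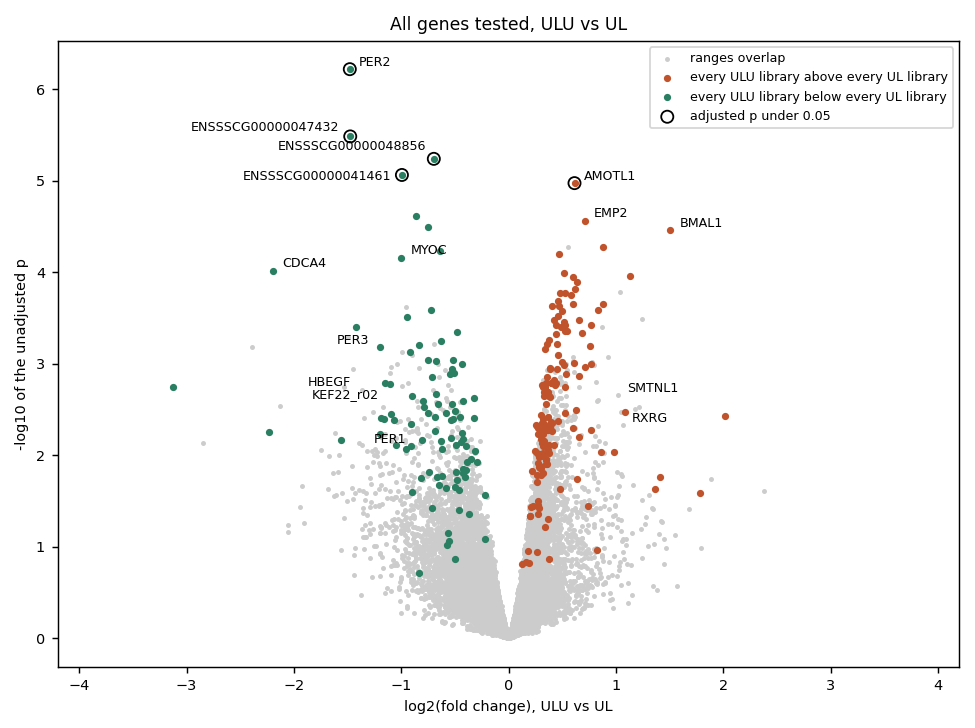
Each point is 1 of the 14203 genes tested in ULU vs UL, with the log2 FC on the horizontal axis and -log10 of the unadjusted edgeR p on the vertical axis. Orange points (155 genes) have every ULU library above every UL library, green points (94 genes) have every ULU library below, and black rings mark the 5 genes with an adjusted p under 0.05, with PER2 at the top.

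The direction of the differences went with the level of the genes. Among the 4789 genes with a mean above 16 CPM, the median log2 FC was 0.07, and 137 were higher without overlap against 21 lower. Among the 9414 genes at or under 16 CPM the median was -0.09, and 18 were higher without overlap against 73 lower. Abundant transcripts made up most of the higher group and scarce transcripts most of the lower group.

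Genes of the circadian clock included the gene with the smallest p of all, and 3 of the 12 core genes did not overlap between the diets, against 1.75% of all genes. PER2, a repressor of the clock, measured 1.79, 1.82, 1.60, 1.72 and 1.51 CPM in the 5 ULU libraries, and 3.87 to 6.54 CPM with a median of 4.26 in the 6 UL libraries. All ULU values lay close together and under the lowest UL value. PER2 fell in ULU, with a log2 FC of -1.48 ± 0.20 (SE, edgeR adjusted p = 0.00858), and it was a DEG in each of the 17 fits that left out 1 library. With both UL libraries 28 and 32 left out, its log2 FC was -1.48 and its edgeR adjusted p was 0.0581.

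BMAL1 (ARNTL), the activator that the PER proteins hold back, lay in the opposite direction. It measured 12.1, 23.2, 17.4, 27.3 and 18.9 CPM in ULU and 3.19 to 8.90 CPM with a median of 7.58 in UL. Every ULU library was above every UL library. Its log2 FC of 1.51 ± 0.28 (SE, edgeR adjusted p = 0.0552) did not pass the adjusted threshold, although it did in 2 of the 17 fits without 1 library, those without control 21 or 23. CLOCK, the partner of BMAL1, measured 66.3, 75.4, 85.9, 88.8 and 76.5 CPM in ULU and 49.6 to 83 CPM with a median of 59.8 in UL. A single UL piglet reached the ULU values of CLOCK, and its log2 FC of 0.35 ± 0.12 (SE, edgeR adjusted p = 0.3004) did not pass. NPAS2, which can stand in for CLOCK, had a log2 FC of 0.52 (edgeR adjusted p = 0.587) and overlapping ranges.

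The other repressors resembled PER2 to differing degrees. PER3 measured 2.32, 1.56, 0.737, 1.03 and 2.48 CPM in ULU and 3.06 to 5.51 CPM with a median of 3.50 in UL, without overlap, a log2 FC of -1.20 ± 0.30 (SE, edgeR adjusted p = 0.157). For PER1 the values were 10.6, 8.12, 4.25, 17.7 and 13.9 CPM in ULU and 16.5 to 23.3 CPM with a median of 18.8 in UL, a log2 FC of -0.86 ± 0.27 (SE, edgeR adjusted p = 0.267). The ULU library 43 alone reached into the UL range of PER1, and the other 4 lay under it. CRY2 had a log2 FC of -0.27 (edgeR adjusted p = 0.395), whereas CRY1 had 0.15 (edgeR adjusted p = 0.847), and both overlapped.

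In the second loop none of NR1D1, NR1D2 and RORA separated the diets. NR1D1 (REV-ERBα) had a log2 FC of 0.57 (edgeR adjusted p = 0.690) with ULU values of 3.14, 2.27, 0.867, 5.91 and 2.63 CPM, a wide spread. NR1D2 had -0.21 (edgeR adjusted p = 0.790) and RORA had 0.24 (edgeR adjusted p = 0.481). Of the 12 core clock genes, all tested, 2 were higher and 4 lower at an unadjusted p under 0.05, against 6.16% and 4.68% of all genes. Without ULU 42, 5 were higher.

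**Figure D2:**
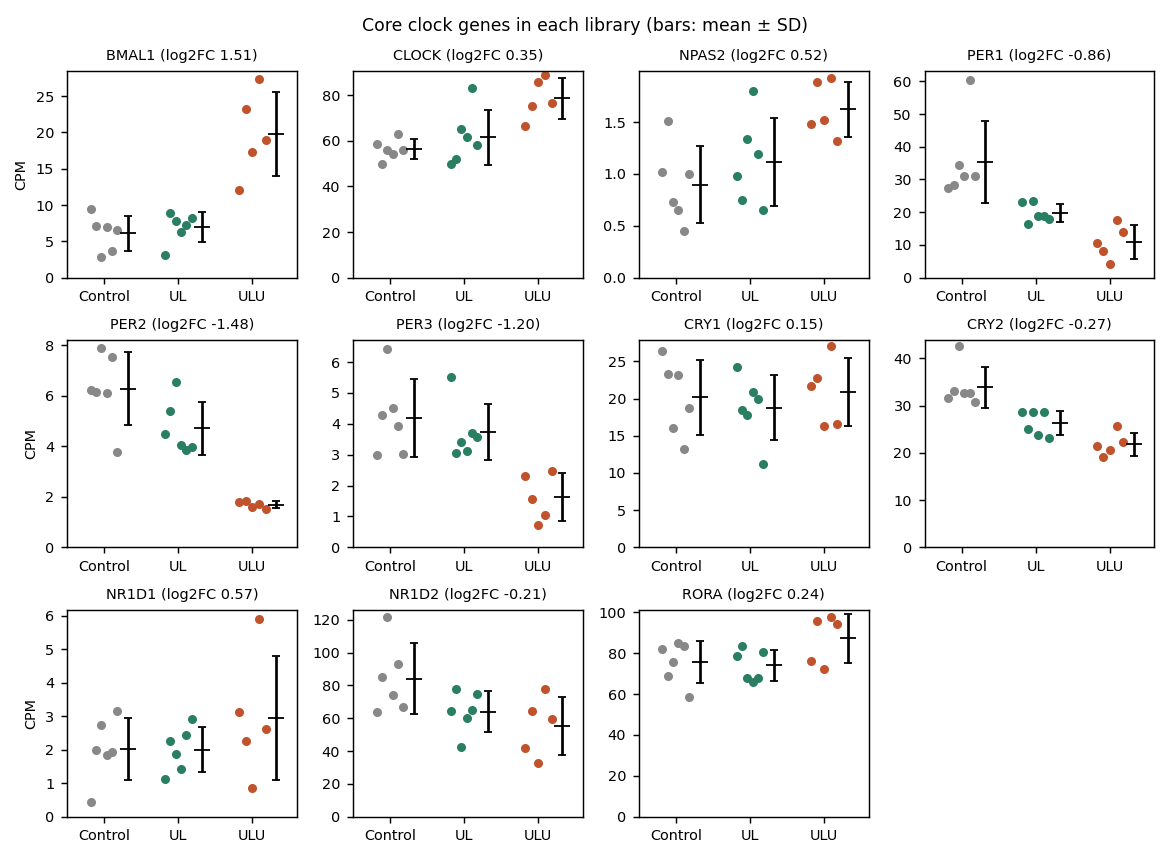
CPM of 11 core clock genes in each library of the control (grey), UL (green) and ULU (orange) diets, with 1 point per piglet, the mean ± SD beside the points and each axis starting at 0. The 5 ULU points of PER2 lie between 1.51 and 1.82 CPM, under all UL points, and those of BMAL1 lie between 12.1 and 27.3 CPM, above all UL points.

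The control piglets, which ate no seaweed, resembled UL rather than ULU in BMAL1, with 6.14 ± 2.42 CPM (SD, n = 6), and in PER3, with 4.19 ± 1.27 CPM (SD, n = 6). PER2 measured 6.28 ± 1.45 CPM (SD, n = 6) in them and PER1 measured 35.4 ± 12.5 CPM (SD, n = 6), so that for PER1 the 3 diets stood in the order control, UL and ULU by mean. Of 13 genes of clock output and secondary loops, 1 was higher and 3 were lower at an unadjusted p under 0.05. The shares of all genes were 6.16% and 4.68%, and the median log2 FC of the 13 was -0.17. NFIL3, a repressor that shares its binding sites with the activators DBP, TEF and HLF, measured 16.4, 13.8, 25.9, 17.4 and 11.3 CPM in ULU and 4.38 to 15.2 CPM with a median of 9.77 in UL, a log2 FC of 0.79 ± 0.29 (SE, edgeR adjusted p = 0.339). TEF had -0.63 (edgeR adjusted p = 0.352) and FBXL21, which marks CRY proteins for turnover, had -0.90 (edgeR adjusted p = 0.258), and all 3 overlapped between the diets.

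On chromosome 2, a pair of neighbouring unnamed transcripts fell in ULU. ENSSSCG00000047432 (6749400 to 6750686 on the plus strand of Sscrofa11.1) measured 1.83, 1.62, 2.51, 2.46 and 2.09 CPM in ULU and 4.31 to 8.51 CPM with a median of 5.56 in UL. The ranges were well apart, and it fell with a log2 FC of -1.47 ± 0.23 (SE, edgeR adjusted p = 0.0233). It stayed a DEG in 13 of the 17 fits that left out 1 library, and not without UL 31 or without ULU 40, 41 or 44.

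ENSSSCG00000048856 (6752140 to 6757157, minus strand), its neighbour, measured 115, 141, 129, 149 and 146 CPM in ULU and 169 to 269 CPM with a median of 219 in UL, without overlap. It fell with a log2 FC of -0.70 ± 0.11 (SE, edgeR adjusted p = 0.0273), under the fold change limit of a DEG. The call was lost without UL 28, 31 or 32 and without ULU 40, 41, 42 or 44. ENSSSCG00000041050 (6753571 to 6794973, plus strand), chosen after its values were seen because it overlaps this gene on the opposite strand, measured 27.6 ± 6.14 CPM in UL (SD, n = 6) against 16.3 ± 2.30 CPM in ULU (SD, n = 5), a log2 FC of -0.75 ± 0.14 (SE, edgeR adjusted p = 0.0552). Reads were counted without regard to strand, so transcripts of the overlapping stretch cannot be told apart. RefSeq places 1 long noncoding RNA, LOC102163816 (6749941 to 6794116), over this stretch. Of the genes on either side, LTBP3 had a log2 FC of -0.10 (edgeR adjusted p = 0.942), the unnamed ENSSSCG00000044913 of -0.18 (edgeR adjusted p = 0.903) and FRMD8 of -0.59 (edgeR adjusted p = 0.469), and none of the 3 passed.

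The fourth gene that fell, ENSSSCG00000041461 (37959 to 44045 of the unplaced scaffold AEMK02000489.1, minus strand), measured 52.7, 49.3, 44.5, 74.1 and 82.2 CPM in ULU and 105 to 138 CPM with a median of 121 in UL. No ULU library reached the UL range, and the log2 FC of -0.99 ± 0.17 (SE, edgeR adjusted p = 0.0302) passed the adjusted threshold in 8 of the 17 fits without 1 library, namely those without a control library, ULU 43 or ULU 44. On the same scaffold, ENSSSCG00000037563 measured 7.10 ± 4.24 CPM in UL (SD, n = 6) against 2.43 ± 0.640 CPM in ULU (SD, n = 5), a log2 FC of -1.54 ± 0.42 (SE, edgeR adjusted p = 0.202). In it UL 27 lay under every ULU library and the other 5 UL libraries above. The abundant ENSSSCG00000043761, with means of 3140 CPM in UL and 1892 CPM in ULU, had a log2 FC of -0.73 (edgeR adjusted p = 0.455). Still more abundant was ENSSSCG00000047299, with means of 9826 CPM in UL and 7221 CPM in ULU and a log2 FC of -0.44 (edgeR adjusted p = 0.466). The last of these overlaps ENSSSCG00000041461 on the opposite strand, so reads of the shared stretch cannot be assigned to either. The log2 FC of the other models tested nearby ran up to 0.03 (edgeR adjusted p = 0.991) in ENSSSCG00000032599 and down to -1.67 (edgeR adjusted p = 0.308) in ENSSSCG00000038753. These 5 neighbours were chosen after their values were seen, and the names of the models are not given in the sources used here. Whether ENSSSCG00000041461 or its neighbours hold ribosomal RNA was not tested.

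AMOTL1, angiomotin like 1, a protein of cell junctions that binds the growth regulator YAP, was the gene that rose. It measured 79.3, 82.5, 82.5, 98.1 and 83.6 CPM in ULU and 48.2 to 64.5 CPM with a median of 55.7 in UL, without overlap, a log2 FC of 0.61 ± 0.10 (SE, edgeR adjusted p = 0.0302). The call held in the 6 fits that left out a control library and was lost in each of the 11 that left out a UL or ULU library. The control piglets, at 47.9 ± 5.19 CPM (SD, n = 6), lay nearer to UL.

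Among the named genes with every ULU library above every UL library, the 12 with the smallest p comprised AMOTL1, BMAL1 and 10 others that did not pass the adjusted threshold. EMP2, a tetraspan membrane protein, measured 92.03, 97.6, 103, 150.1 and 95.7 CPM in ULU and 54.96 to 81.1 CPM with a median of 64.7 in UL, a log2 FC of 0.71 ± 0.13 (SE, edgeR adjusted p = 0.0552). KLHL31, a kelch protein of skeletal muscle, measured 1215, 1194, 1578, 1605 and 1249 CPM in ULU and 765 to 996 CPM with a median of 924 in UL, a log2 FC of 0.60 ± 0.12 (SE, edgeR adjusted p = 0.0891). In both genes the ULU library 43 was the highest of all 11.

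BCL2L13, a protein of the outer mitochondrial membrane that takes part in mitophagy, had ULU values of 69.1, 65.2, 68.4, 71.95 and 70.8 CPM, and 43.1 to 53.01 CPM with a median of 51.7 in UL, a log2 FC of 0.47 ± 0.09 (SE, edgeR adjusted p = 0.0683). ETFDH, which passes electrons from fatty acid oxidation to the respiratory chain, measured 190.1, 165, 186, 244 and 202 CPM in ULU and 120.3 to 158 CPM with a median of 137 in UL, a log2 FC of 0.53 ± 0.11 (SE, edgeR adjusted p = 0.104). GPD2, the mitochondrial arm of the glycerol phosphate shuttle, measured 275, 294, 281, 428 and 362 CPM in ULU and 182 to 254 CPM with a median of 221 in UL, a log2 FC of 0.58 ± 0.13 (SE, edgeR adjusted p = 0.104). All 3 lay higher in each ULU piglet, by less than 1 on the log2 scale. KCNJ11, the pore of the ATP-sensitive potassium channel, had a log2 FC of 0.64 (edgeR adjusted p = 0.0956). The others were REST, a repressor of neuronal genes, at 0.62 (edgeR adjusted p = 0.104), TMEM263 at 0.52 (edgeR adjusted p = 0.0891), RNF141 at 0.48 (edgeR adjusted p = 0.104) and GPBP1L1 at 0.46 (edgeR adjusted p = 0.113).

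The 12 named genes with the smallest p among those lower in every ULU library comprised PER2, PER3 and 10 others that did not pass the adjusted threshold. SNX9, a sorting nexin of endocytosis, measured 5.94, 6.11, 3.77, 5.57 and 4.57 CPM in ULU and 8.23 to 12.1 CPM with a median of 8.81 in UL, a log2 FC of -0.86 ± 0.16 (SE, edgeR adjusted p = 0.0552). MYOC, the secreted glycoprotein myocilin, measured 21.8, 19.8, 18.5, 20.8 and 13.7 CPM in ULU and 31.6 to 49.2 CPM with a median of 35 in UL, a log2 FC of -0.998 ± 0.20 (SE, edgeR adjusted p = 0.0708). Every ULU piglet had less MYOC than every UL piglet, but the adjusted threshold was passed in 1 of the 17 fits without 1 library. JAZF1, a transcriptional cofactor, had a log2 FC of -0.64 (edgeR adjusted p = 0.0683) and CREB5, a transcription factor, one of -0.95 (edgeR adjusted p = 0.124). The transcription factor POU6F1 was scarce, at 1.27 ± 0.316 CPM in UL (SD, n = 6) against 0.470 ± 0.153 CPM in ULU (SD, n = 5). CDCA4 measured 0.131, 0.0650, 0.0867, 0.296 and 0.243 CPM in ULU, where 3 of the 5 libraries held 3 reads or fewer, and 0.489 to 1.17 CPM with a median of 0.785 in UL, so no fold change is given. SDCCAG8, a centrosomal protein, had -0.48 (edgeR adjusted p = 0.134), and C10H9orf3 had -0.52 (edgeR adjusted p = 0.180). The last 2, RPS21 and RPS23, are described with the ribosomal proteins.

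Genes of glycolysis, the TCA cycle, fatty acid oxidation and amino acid catabolism lay mostly above 0 in ULU, and none passed the adjusted threshold. Of 24 genes of glycolysis and glycogen use, 22 had a log2 FC above 0, against 47.0% of all genes. At an unadjusted p under 0.05, 12 were higher, against 6.16% of all genes, with none lower. Their median was 0.37, and the highest value was that of LDHB, a lactate dehydrogenase subunit named after its value was seen, at 0.94 (edgeR adjusted p = 0.438). It rested on ULU 43 and was 0.09 without that library. PYGM, muscle glycogen phosphorylase, measured 10392, 10672, 9317, 17725 and 12373 CPM in ULU and 7039 to 9648 CPM with a median of 8111 in UL, a log2 FC of 0.55 ± 0.17 (SE, edgeR adjusted p = 0.252). PFKM, muscle phosphofructokinase, measured 2404, 1841, 2429, 4239 and 2357 CPM in ULU and 1460 to 1940 CPM with a median of 1762 in UL, a log2 FC of 0.61 ± 0.18 (SE, edgeR adjusted p = 0.252). Both genes were highest in ULU 43, and 1 ULU library of each lay inside the UL range, ULU 42 for PYGM and ULU 41 for PFKM. Without ULU 43, the number of glycolysis genes with an unadjusted p under 0.05 went from 12 to 6 and the median to 0.21.

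All 19 genes of pyruvate dehydrogenase and the TCA cycle had a log2 FC above 0, 8 of them at an unadjusted p under 0.05, against 47.0% and 6.16% of all genes, with a median of 0.27. DLAT, a subunit of pyruvate dehydrogenase, measured 222, 191, 197, 256 and 209 CPM in ULU and 122 to 169.7 CPM with a median of 155 in UL, a log2 FC of 0.53 ± 0.13 (SE, edgeR adjusted p = 0.134). DLAT alone in this list did not overlap. The number with an unadjusted p under 0.05 was 3 without ULU 43, 5 without UL 30 or UL 32, and 15 without UL 27.

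Fatty acid oxidation genes lay in the same direction: all 15 genes tested were above 0, 5 at an unadjusted p under 0.05 (again against 47.0% and 6.16%), with a median of 0.24. Without UL 27, 9 had such a p. ACADVL, which starts the oxidation of long-chain fatty acids, had 0.42 (edgeR adjusted p = 0.258). Of 22 genes of amino acid catabolism, 17 were above 0 and 8 were higher at an unadjusted p under 0.05, with a median of 0.25. The number was 5 without UL 32, ULU 43 or ULU 44. GOT2, the mitochondrial aspartate aminotransferase, measured 565, 503, 458, 615 and 563 CPM in ULU and 382 to 459 CPM with a median of 395 in UL, a log2 FC of 0.42 ± 0.12 (SE, edgeR adjusted p = 0.240). BCKDK, the kinase that restrains oxidation of branched-chain amino acids, did not overlap and had 0.37 (edgeR adjusted p = 0.211), whereas GLUL, glutamine synthetase, had -0.38 (edgeR adjusted p = 0.498).

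**Figure D3:**
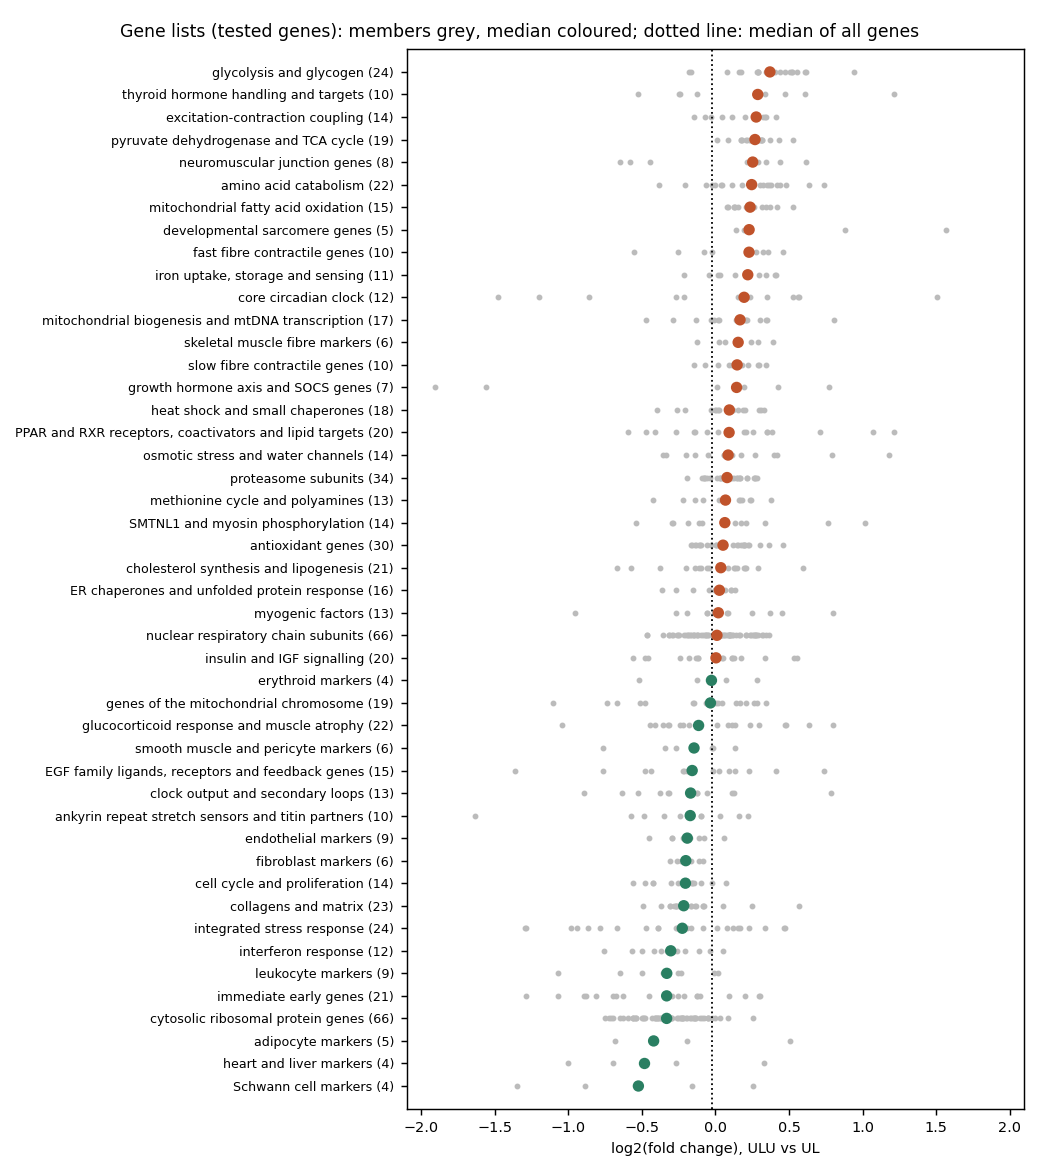
Log2(fold change) of the tested members of each gene list in ULU vs UL (grey points) with the median of the list (orange above 0, green under 0), the number of genes tested in brackets and the median of all genes as a dotted line. Glycolysis lies at the top with a median of 0.37, and the 66 ribosomal protein genes lie near the bottom with a median of -0.33.

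The lists of energy metabolism also varied between libraries of 1 diet. Expressed as the median deviation of a library's log2 CPM from the mean of the 11 libraries, glycolysis stood at 0.75 in ULU 43, at -0.06 in ULU 42, and between -0.41 and 0.02 in UL. For the TCA cycle, UL 27 stood at 0.22, inside the ULU range, and the other UL libraries between -0.29 and -0.12. In ULU 43, markers of fibroblasts stood at -0.95 and those of leukocytes at -1.27, the lowest of the 11 libraries, while skeletal muscle markers stood at 0.59, the highest. The part of these in the metabolic lists was not tested.

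**Figure D4:**
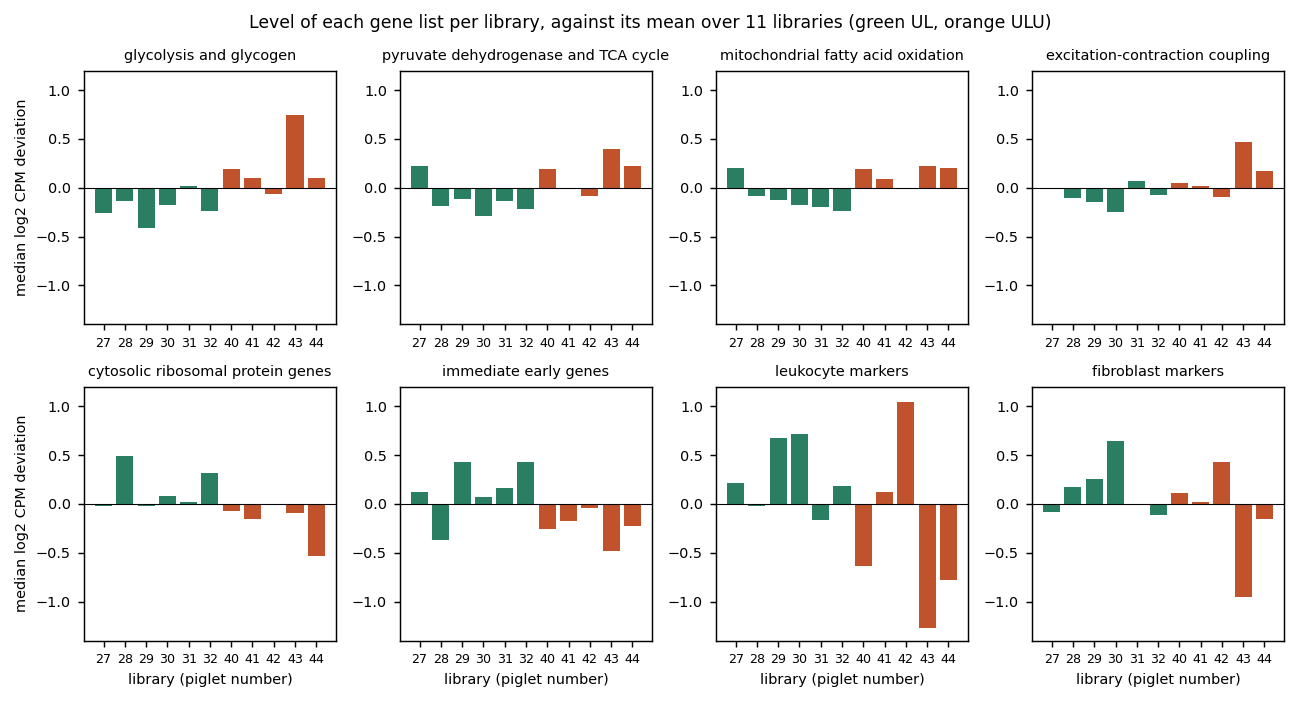
Each bar is the median deviation of the log2 CPM of a list's genes in 1 library from the mean of the 11 libraries, for the 6 UL (green) and 5 ULU (orange) libraries, named by piglet number. ULU 43 has the highest bar for glycolysis (0.75) and the lowest for leukocyte markers (-1.27), and UL 28 has the highest for ribosomal proteins (0.49).

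On the mitochondrial chromosome, the ribosomal RNAs lay under 0 and the mRNAs on both sides. The small ribosomal RNA (KEF22_r02, 1246 to 2205) measured 865, 1361, 1588, 1867 and 1042 CPM in ULU and 1928 to 5452 CPM with a median of 2436 in UL. All ULU values lay under all UL values, and UL 32 was far above the rest. The log2 FC of -1.11 ± 0.30 (SE, edgeR adjusted p = 0.201) did not pass. The large ribosomal RNA (KEF22_r01, 2274 to 3844) measured 11626, 18427, 19434, 24191 and 16227 CPM in ULU and 14316 to 44952 CPM with a median of 26381 in UL, with UL 27 and UL 30 among the ULU values, a log2 FC of -0.67 ± 0.25 (SE, edgeR adjusted p = 0.339).

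The protein-coding genes of this chromosome went both ways. ND4, a subunit of complex I, had 0.34 (edgeR adjusted p = 0.407), and ND3, another subunit, had -0.48 (edgeR adjusted p = 0.2999). ND3 is short, and its UL values ran from 1151 to 2420 CPM. Of the 19 genes tested on this chromosome, 9 were above 0, and their median was -0.03. At an unadjusted p under 0.05, 1 was higher and 3 were lower, against 6.16% and 4.68% of all genes. With exonic length as an offset for each library (chosen after seeing the data), 14 were above 0 and the median was 0.13. The whole chromosome took 8.002% to 11.6% of the counts in ULU and 8.64% to 14.8% in UL (two-sided exact permutation test, p = 0.260 before and 0.707 after adjustment).

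**Figure D5:**
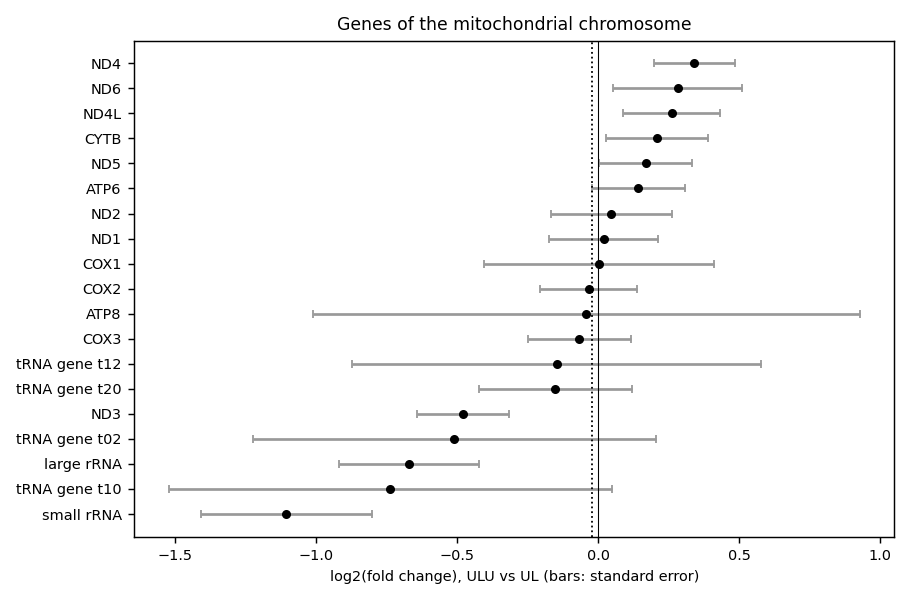
Log2(fold change) in ULU vs UL of the 19 tested genes of the mitochondrial chromosome, with standard errors as bars, 0 as a solid line and the median of all genes as a dotted line. The small rRNA (-1.11) and large rRNA (-0.67) lie to the left, ND4 (0.34) lies farthest to the right, and 3 transfer RNAs and ATP8 carry the widest bars.

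Nuclear genes of the respiratory chain were split: of 66 subunits, 34 were above 0 and 32 under it, with a median of 0.01. At an unadjusted p under 0.05, 8 were higher and 4 lower, against 6.16% and 4.68% of all genes. The 8 included ATP5B, the beta subunit of ATP synthase, at 0.36 (edgeR adjusted p = 0.320), and SDHA, of complex II, at 0.32 (edgeR adjusted p = 0.323). The 4 included COX7C at -0.36 (edgeR adjusted p = 0.404) and ATP5ME at -0.46 (edgeR adjusted p = 0.444). Without single libraries, 3 (without ULU 44) to 13 (without UL 27) were higher, and none was lower without UL 28, UL 32 or ULU 44. With exonic length as an offset for each library, 38 of the 66 were above 0, and 13 were higher and 2 lower at that p. Of 17 genes of mitochondrial biogenesis, 3 were higher at an unadjusted p under 0.05, against 6.16% of all genes. Among them were GABPA at 0.31 (edgeR adjusted p = 0.337) and TFAM, which packages and transcribes mitochondrial DNA, at 0.34 (edgeR adjusted p = 0.353).

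Genes of cytosolic ribosomal proteins lay almost uniformly under 0. Of 66 genes tested, 63 had a log2 FC under 0, against 53.0% of all genes. At an unadjusted p under 0.05, 38 were lower, against 4.68% of all genes, with none higher. Their median was -0.33, and none passed the adjusted threshold. RPS21 measured 127, 109.8, 119, 84.1 and 73.97 CPM in ULU and 139.6 to 208 CPM with a median of 161 in UL, a log2 FC of -0.72 ± 0.16 (SE, edgeR adjusted p = 0.116). RPS23 measured 125, 122, 147, 98.1 and 89.7 CPM in ULU and 147 to 226 CPM with a median of 165 in UL, a log2 FC of -0.63 ± 0.15 (SE, edgeR adjusted p = 0.150). Neither overlapped, and neither did RPL38 and RPL30, which were chosen after their values were seen and had log2 FC values of -0.75 and -0.39. RPL3L, a form particular to striated muscle, was the highest of the list with 0.26 (edgeR adjusted p = 0.586).

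Single libraries stood apart in the ribosomal group. Its median deviation was 0.49 in UL 28, 0.31 in UL 32 and -0.53 in ULU 44, and lay between -0.16 and 0.08 in the other 8. Without UL 28 and UL 32, 13 of the 66 genes were lower at an unadjusted p under 0.05, against 409 of the 14414 genes tested in that fit. The median of the 66 was then -0.18. Control piglets measured 109 ± 20.3 CPM (SD, n = 6) for RPS21 and 123 ± 18.7 CPM (SD, n = 6) for RPS23, near the ULU values. Short transcripts in general lay under 0: among 260 genes of up to 700 nt of exon that are not ribosomal proteins, the median log2 FC was -0.20, against -0.01 among 6760 such genes of 4000 to 9000 nt. Ribosomal protein genes did not follow their annotated length in this way. Their median was -0.35 for 12 genes of up to 700 nt, -0.17 for 14 of 2000 to 4000 nt and -0.37 for 10 of 4000 to 9000 nt. With exonic length as an offset for each library, 32 ribosomal protein genes were lower at an unadjusted p under 0.05 and the median was -0.25.

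None of the genes of contraction passed the adjusted threshold. Of 10 fast fibre genes, 3 were higher and none lower at an unadjusted p under 0.05, against 6.16% and 4.68% of all genes. Their list had a median of 0.23. The 3 included ACTN3, the actinin of fast fibres, at 0.46 (edgeR adjusted p = 0.252), and MYBPC2 at 0.36 (edgeR adjusted p = 0.339), while PVALB had -0.55 (edgeR adjusted p = 0.577). The model ENSSSCG00000029441 spans MYH1, MYH2 and MYH4, whose reads cannot be told apart, and had 0.34 (edgeR adjusted p = 0.380). It was chosen after its values were seen. None of 10 slow fibre genes or 5 developmental sarcomere genes had an unadjusted p under 0.05, and their medians were 0.15 and 0.23. Both medians turned on 1 library: the slow fibre median was -0.02 without ULU 41, and the developmental sarcomere median was -1.10 without ULU 42, with 2 genes then lower at an unadjusted p under 0.05. In excitation-contraction coupling, 11 of 14 genes had a log2 FC above 0, against 47.0% of all genes. At an unadjusted p under 0.05, 4 were higher, against 6.16% of all genes. CACNB1, of the calcium channel, had 0.34 (edgeR adjusted p = 0.281) and SCN4A, the sodium channel of muscle, had 0.41 (edgeR adjusted p = 0.308). Without ULU 43, 1 gene was higher at an unadjusted p under 0.05, and the median of the list went from 0.28 to 0.09.

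SMTNL1, smoothelin like 1, which restrains myosin phosphatase, measured 119, 90.4, 43.7, 156 and 172 CPM in ULU and 40.7 to 84.3 CPM with a median of 56.6 in UL. ULU 42 lay within the UL range and the other 4 ULU libraries lay above it. The log2 FC of 1.02 ± 0.29 (SE, edgeR adjusted p = 0.218) did not pass. Its paralogue SMTNL2 measured 50.4, 41.5, 48.3, 57.95 and 56.03 CPM in ULU and 21.2 to 37.4 CPM with a median of 30.2 in UL, without overlap, a log2 FC of 0.77 ± 0.24 (SE, edgeR adjusted p = 0.269). The other genes of myosin phosphorylation included ROCK1, a kinase that inhibits the phosphatase, at -0.30 (edgeR adjusted p = 0.403), and the list of 14 had a median of 0.06.

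RXRG, the retinoid X receptor most typical of muscle, measured 50.7, 63.3, 96.4, 102 and 46.2 CPM in ULU and 21.7 to 46.8 CPM with a median of 31.9 in UL. Only ULU 44 lay within the UL range, yet the log2 FC of 1.07 ± 0.33 (SE, edgeR adjusted p = 0.263) did not pass. UCP3, a mitochondrial carrier of muscle and a target of PPAR and thyroid receptors, measured 27.04, 15.01, 18.5, 8.23 and 11.3 CPM in ULU and 3.42 to 9.87 CPM with a median of 6.998 in UL, with ULU 43 inside the UL range, a log2 FC of 1.21 ± 0.36 (SE, edgeR adjusted p = 0.241). Among 20 genes of PPAR and RXR signalling, 3 were higher and none lower at an unadjusted p under 0.05. The shares of all genes were 6.16% and 4.68%. Without ULU 42, 6 of the list were higher at that p. PPARG, the receptor of adipocytes, had -0.60 (edgeR adjusted p = 0.604). Of 10 thyroid-related genes 3 were higher at an unadjusted p under 0.05, against 6.16% of all genes. Among them was the transporter SLC16A10 at 0.61 (edgeR adjusted p = 0.256).

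HBEGF, a growth factor that activates the EGF receptor, measured 13.9, 16.4, 6.76, 16.3 and 7.003 CPM in ULU and 12.4 to 47.6 CPM with a median of 30.5 in UL. UL 31, with the lowest UL value, lay among the ULU libraries, and the other 5 UL libraries lay above all of them. Its log2 FC of -1.36 ± 0.38 (SE, edgeR adjusted p = 0.208) did not pass. DUSP6, a feedback phosphatase of the same pathway, had -0.48 (edgeR adjusted p = 0.281), and the ligand EREG had 0.74 (edgeR adjusted p = 0.402). Of 15 genes of the EGF family and its feedback, 4 were lower and 1 was higher at an unadjusted p under 0.05. Of all genes, 4.68% were lower and 6.16% higher at that p.

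Immediate early genes, which respond within minutes to stimuli and to handling of tissue, lay mostly under 0. Of 21 tested, 17 were under 0 and 5 were lower at an unadjusted p under 0.05, against 53.0% and 4.68% of all genes, with a median of -0.33. KLF2 measured 0.917, 1.43, 0.953, 1.33 and 0.778 CPM in ULU and 1.47 to 2.79 CPM with a median of 1.80 in UL, without overlap, a log2 FC of -0.90 ± 0.26 (SE, edgeR adjusted p = 0.218). CCN1 had -1.07 (edgeR adjusted p = 0.325), with UL 32 at 6.43 CPM against at most 2.18 in the other UL libraries. The number lower at an unadjusted p under 0.05 was 1 without UL 32, 3 without ULU 41, 43 or 44, and 8 without ULU 42.

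Stress-responsive factors varied widely between piglets of 1 diet. ATF3, a stress-induced transcription factor, measured 7.47, 19.4, 4.25, 13.8 and 8.56 CPM in ULU and 7.35 to 62.8 CPM with a median of 21.3 in UL, a log2 FC of -1.29 ± 0.57 (SE, edgeR adjusted p = 0.433). ANKRD1, induced by stretch and load, measured 98.8, 82.97, 287, 42.1 and 40.8 CPM in ULU and 85.96 to 573 CPM with a median of 374 in UL, a log2 FC of -1.63 ± 0.62 (SE, edgeR adjusted p = 0.352). For both genes, libraries of each diet lay inside the range of the other. Of 24 genes of the integrated stress response, 2 were lower at an unadjusted p under 0.05, ATF3 and CEBPB, against 4.68% of all genes, and none higher, with a median of -0.23. The median was 0.06 without UL 27, and none was lower at that p without UL 32, ULU 40, ULU 42 or ULU 44. CEBPB had -0.79 (edgeR adjusted p = 0.426). ASNS, an amino acid response gene, had 0.46 (edgeR adjusted p = 0.573).

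Insulin signalling held genes that differed in both directions. TBC1D4 (AS160), which lets GLUT4 move to the membrane once AKT2 phosphorylates it, measured 62.7, 80.96, 69.3, 82.7 and 99.02 CPM in ULU and 49.5 to 62.8 CPM with a median of 52.4 in UL. A single pair of values kept the ranges from separating, ULU 40 being just under UL 28, and the log2 FC of 0.56 ± 0.11 (SE, edgeR adjusted p = 0.0683) did not pass. AKT2 measured 85.96, 76.99, 90.6, 94.9 and 90.3 CPM in ULU and 44.05 to 77.03 CPM with a median of 62.6 in UL, where the lowest ULU library met the highest UL library, a log2 FC of 0.53 ± 0.14 (SE, edgeR adjusted p = 0.180). INSR, the insulin receptor, had -0.48 (edgeR adjusted p = 0.404). The 20 genes of the list had a median of 0.00.

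STAT5A, which carries the growth hormone signal, measured 59.97, 82.7, 75.95, 55.6 and 97.9 CPM in ULU and 30.7 to 59 CPM with a median of 43.1 in UL, a log2 FC of 0.77 ± 0.20 (SE, edgeR adjusted p = 0.180), and STAT5B had 0.43 (edgeR adjusted p = 0.256). CISH, an inhibitor induced by STAT5, ran from 1.27 to 55.2 CPM in ULU and from 0.967 to 122 CPM with a median of 58.7 in UL, a log2 FC of -1.91 ± 0.93 (SE, edgeR adjusted p = 0.477). Each ULU library of CISH lay inside the UL range. SOCS1 measured 0.580 ± 0.143 CPM in UL (SD, n = 6) against 0.197 ± 0.115 CPM in ULU (SD, n = 5), near the limit of detection.

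Among the myogenic factors, MYF6 (MRF4), the one most abundant in grown fibres, measured 49.6, 33.3, 18.4, 36.2 and 33.8 CPM in ULU and 46.2 to 82.96 CPM with a median of 66.4 in UL. Only the highest ULU library reached the lowest UL library, and the log2 FC of -0.95 ± 0.21 (SE, edgeR adjusted p = 0.113) did not pass. MSTN, myostatin, which restrains muscle growth, measured 106, 159, 72.96, 137 and 92.9 CPM in ULU and 37.9 to 90.8 CPM with a median of 68.4 in UL, a log2 FC of 0.80 ± 0.26 (SE, edgeR adjusted p = 0.277). MEF2A, a partner of the myogenic factors, had 0.45 (edgeR adjusted p = 0.227). The 13 genes of this list had a median of 0.02.

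Markers of other cell types were mostly under 0 in ULU and none had an unadjusted p under 0.05. Against 53.0% of all genes, values lay under 0 for 8 of 9 leukocyte markers, 6 of 6 fibroblast markers, 8 of 9 endothelial markers, 5 of 6 smooth muscle markers, 4 of 5 adipocyte markers and 3 of 4 Schwann cell markers. In the same direction were 20 of 23 matrix genes, 11 of 12 interferon response genes and 13 of 14 cell cycle genes, with medians of -0.22, -0.30 and -0.20. The T cell gene CD3E had -1.07 (edgeR adjusted p = 0.5004), the matrix gene COL14A1 had -0.50 (edgeR adjusted p = 0.501) and the replication factor MCM4 had -0.43 (edgeR adjusted p = 0.451). The summed level of the 9 leukocyte markers ran from 24.9 to 151 CPM in ULU and from 54.7 to 111 CPM in UL, so the ULU range enclosed the UL range. The libraries ULU 42 and ULU 43 stood at the ends of this range, with median deviations of 1.05 and -1.27. Without ULU 42, 5 leukocyte markers and 5 matrix genes were lower at an unadjusted p under 0.05, against 796 of the 14401 genes tested in that fit. Without ULU 44, 7 cell cycle genes were, against 632 of the 14393 genes tested. Skeletal muscle markers had a median of 0.15, erythroid markers of -0.03, neuromuscular junction genes of 0.25 and heart and liver markers of -0.48. The direction of the last pair turned on 1 library, with -0.46 for neuromuscular junction genes without ULU 42 and 2.52 for heart and liver markers without UL 32. Over the 4 heart and liver markers tested, UL 32 stood at a median deviation of 3.19. The other UL libraries stood between -1.66 and -0.39, under all ULU libraries, which stood between 0.34 and 1.58. The erythroid median lay near 0 and changed sign without several single libraries.

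Lists of stress defence and protein turnover had medians from -0.11 to 0.09, and none of their genes passed the adjusted threshold. Of 30 antioxidant genes, 21 had a log2 FC above 0, against 47.0% of all genes. At an unadjusted p under 0.05, 2 were higher, a share close to the 6.16% of all genes. They were SOD2, the mitochondrial superoxide dismutase, at 0.46 (edgeR adjusted p = 0.323), and KEAP1 at 0.20 (edgeR adjusted p = 0.457). The list median was 0.05. None was higher at that p without ULU 43, and 5 were without UL 27. None of 18 heat shock genes passed an unadjusted p under 0.05 (median 0.09), and 13 were above 0. Of 16 genes of the unfolded protein response, 10 were above 0. The 1 lower at that p, against 4.68% of all genes, was DNAJC3 at -0.36 (edgeR adjusted p = 0.429). Of 34 proteasome subunits, 27 were above 0, against 47.0% of all genes, with a median of 0.08. At an unadjusted p under 0.05, 4 were higher and none lower, against 6.16% and 4.68% of all genes. Among the 4 was PSMD11 at 0.27 (edgeR adjusted p = 0.402). None was higher at that p without ULU 43, and 8 were without UL 27. The number was 2 without UL 28, 30 or 32 or without ULU 40. In the list of atrophy and glucocorticoid genes, BNIP3, a mitophagy receptor, did not overlap and had 0.63 (edgeR adjusted p = 0.360), while CEBPD had -1.04 (edgeR adjusted p = 0.373), and the median was -0.11. The antioxidant median was negative without ULU 42 and the heat shock median without ULU 40. Medians of the insulin, sterol, myogenic, respiratory chain and mitochondrial chromosome lists, all near 0, also changed sign without single libraries. So did those of the unfolded protein response and myosin phosphorylation lists, which went down to -0.05 and -0.04.

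The 4 water channels tested had log2 FC values from -0.36 to 1.18, and none passed the adjusted threshold. AQP7, a channel for water and glycerol, measured 3.49, 3.90, 3.51, 2.37 and 2.97 CPM in ULU and 0.463 to 2.50 CPM with a median of 1.26 in UL, a log2 FC of 1.18 ± 0.35 (SE, edgeR adjusted p = 0.244), with 1 ULU library in the UL range. AQP4, the main water channel of fast fibres, had 0.79 (edgeR adjusted p = 0.359), whereas AQP1 had -0.36 (edgeR adjusted p = 0.553) and AQP3 had 0.06 (edgeR adjusted p = 0.975), both named after their values were seen. The 14 genes of osmotic stress and water transport had a median of 0.09. Of 11 iron genes, 9 had a log2 FC above 0, against 47.0% of all genes, with a median of 0.22. At an unadjusted p under 0.05, 4 were higher and none lower, against 6.16% and 4.68% of all genes. The 4 included HJV, hemojuvelin, a muscle-expressed regulator of hepcidin, at 0.41 (edgeR adjusted p = 0.249), and IREB2, which senses iron and did not overlap, at 0.29 (edgeR adjusted p = 0.303). Without UL 30, UL 32, ULU 41 or ULU 43, 2 were higher at that unadjusted p. In the methionine and polyamine list, AZIN1 had 0.38 (edgeR adjusted p = 0.429) and ODC1, the enzyme that AZIN1 spares from degradation, had -0.42 (edgeR adjusted p = 0.403). In cholesterol synthesis and lipogenesis, FDFT1, squalene synthase, measured 52.98, 42.6, 73.5, 73.8 and 67.5 CPM in ULU and 30.4 to 49.4 CPM with a median of 42.5 in UL, with 1 ULU library in the UL range, a log2 FC of 0.60 ± 0.15 (SE, edgeR adjusted p = 0.176). The 21 genes of this list had a median of 0.04.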

How the data were processed

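Total RNA of the longissimus dorsi was sequenced by the authors as single reads of 75 nt. Per the file headers and the methods, reads were trimmed with fastp, aligned with HISAT2 to Sscrofa11.1 and counted with featureCounts v2.0.1 on Ensembl annotation 104 with default options, without strand. The deposited values were raw counts per gene, 16137365 to 26546810 per UL or ULU library. Gene names came from the IDs (15029 genes) or from the RefSeq position (1261 genes).

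Here, edgeR 4.0.16 (TMM, filterByExpr) was fitted to all 17 libraries with diet as the factor, and ULU vs UL was its contrast, with an adjusted p under 0.05. SE is the log2 FC divided by the root of the F statistic. The fit was tested on simulated data. Alternatives used DESeq2 1.42.0, limma 3.58.1, other filters and scalings, and each library left out. The samples and gene lists were chosen with earlier results of these data known. The named genes were those with an adjusted p under 0.05, the 12 named genes of smallest p in each direction without overlap, SMTNL1, RXRG, HBEGF and the mitochondrial rRNAs, the core clock, and up to 2 genes per list and direction. Others were chosen after their values were seen, as said beside them. No 2 libraries of a diet agreed within counting noise, the closest pair differing by a chi-square of 24.6 per degree of freedom. The authors' column of means was used only as a check. Results for some genes are not reported here.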

Additional observations from a re-analysis of the deposited data

Results flagged for a closer look

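Within a diet, 17 of 244 groups of values held a library that stood far from the others (a gap over the 95% limit of Dixon's ratio), where chance gives about 1 in 20. ULU 43 stood high in AMOTL1 (98.1 CPM, the others 79.3 to 83.6), EMP2 (150.1 CPM, the others 92.0 to 103), PFKM (4239 CPM, the others 1841 to 2429), SLC16A10 (25.3 CPM, the others 13.1 to 16.3), LDHB (4.78 CPM, the others 0.568 to 1.36) and CISH (55.2 CPM, the others 1.27 to 15.9). ULU 42 stood high in ANKRD1 (287 CPM, the others 40.8 to 98.8) and ULU 40 high in REST (40.8 CPM, the others 26.2 to 30.3).

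Among the UL libraries, UL 27 stood high in PER3 (5.51 CPM, the others 3.06 to 3.70), GOT2 (459 CPM, the others 382 to 409.5), SOD2 (773 CPM, the others 350.4 to 503) and TFAM (87.3 CPM, the others 49.5 to 59.6). UL 32 stood high in KEF22_r02 (5452 CPM, the others 1928 to 3166), CCN1 (6.43 CPM, the others 1.39 to 2.18), ENSSSCG00000043761 (7075 CPM, the others 1396 to 2946) and in its distance to the centre of the diet on log2 CPM (48.2, the others 25.1 to 30.3). UL 28 stood high in TBC1D4 (62.8 CPM, the others 49.5 to 54.2).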

How the results depend on the processing

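PER2 kept its direction in every alternative run. edgeR on the UL and ULU libraries alone gave 1 DEG, PER2, and 1 gene with an adjusted p under 0.05, and so did log2 of the total counts as a covariate (1 and 1), so that the other 4 calls were lost in both. RLE size factors, leaving out the mitochondrial chromosome and exonic length as an offset (chosen after seeing the data) kept all 5 calls. DESeq2 on those 11 libraries gave 4 DEGs (HBEGF, KEF22_r02, RXRG and SMTNL1) and 246 genes, 219 higher and 27 lower, and on all 17 libraries 2 DEGs (KEF22_r02 and SMTNL1) and 252 genes. It gave PER2 no adjusted p, through its independent filtering of low counts. Without that filtering, an alternative chosen after seeing the data, it gave 24 DEGs and 122 genes, with PER2 among the DEGs. limma voom with sample weights gave 11 DEGs and 58 genes. Without a filter on low counts 8 genes passed, and with at least 1 CPM in 5 libraries 8. Leaving out UL 28 and UL 32, also chosen after seeing the data, gave 0 DEGs and 0 genes by edgeR, with 1028 at an unadjusted p under 0.05.

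Leaving out 1 library at a time gave 1 to 3 DEGs and 1 to 7 genes. The difference in total counts then ran from 2271480 to 4873840, in genes detected from -111 to 90.8, in the share of the 10 most abundant genes from -0.477 to 1.14 percentage points, and in the distance to the centre of the diet from -4.10 to 2.26. Of the 3214 gene values under alternatives, 10 changed direction, all of AQP3 and ENSSSCG00000032599. Without 1 library, the log2 FC of AQP3 ran from -0.26 to 0.35 and that of ENSSSCG00000032599 from -0.17 to 0.44, and AQP3 had -0.16 without UL 28 and UL 32. No paired analysis was possible because the diets share no replicate numbers. Each diet held 5 or 6 piglets, and scarce genes such as CDCA4 and SOCS1 rested on few reads.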
